A study of Mus musculus with 12 samples.

Results

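The 10 genes described here make up the core protein folding machinery of the endoplasmic reticulum (ER) and 1 transcription factor that serves it: the chaperones Hspa5, Hsp90b1, Calr and Canx, the disulfide isomerases Pdia3, Pdia4 and Pdia6, the Hspa5 cofactors Dnajb9 and Sdf2l1, and Xbp1. They were taken from the deposited table by gene symbol, and each of the 10 symbols matched 1 of its 35709 Ensembl identifiers. RNA-seq was run on primary hepatocytes of C57BL/6J male mice aged 8 to 10 weeks, 48 h after 1 intraperitoneal dose of CCl4 (carbon tetrachloride, which is toxic to the liver) or of its vehicle, olive oil. The dose was 0.4 mg CCl4 per gram of mouse. The 12 libraries formed 4 groups of 3, oil or CCl4 in each of the genotypes Alb-Cre and Alb-R3. Alb-Cre is the control genotype, named for Cre recombinase driven by the albumin gene's promoter, which is active in hepatocytes. Alb-R3 mice are described as lacking the receptor gene Fgfr3 in hepatocytes alone, and the sources used here do not give the driver of that deletion. Cells were obtained by Liberase perfusion, differential centrifugation and a Percoll gradient, so the libraries come from the cells that withstood isolation. The labels do not say that each library is a separate animal, so p-values measure the spread between these libraries, which may be partly technical.

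Hepatocytes are secretory cells that make most plasma proteins, albumin among them, on ER-bound ribosomes. When unfolded protein accumulates in the ER, the sensors Ern1 (IRE1), Atf6 and Eif2ak3 (PERK) start the unfolded protein response. IRE1 splices the Xbp1 mRNA so that it encodes an active transcription factor, cleaved ATF6 enters the nucleus, and both raise transcription of ER chaperones, while PERK slows translation and leads to Atf4 and its targets. The gene-level Xbp1 value used here does not separate spliced from unspliced mRNA.

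Several chaperone promoters carry the ER stress response element, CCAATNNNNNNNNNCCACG, which ATF6 and XBP1 are known to use together with NF-Y. Because the element is already known from chaperone promoters, finding it in these windows is no independent result about the 10 genes. All 10 genes matched a RefSeq window on GRCm38.p6 that runs from 250 bases before to 50 bases after the gene's start. On either strand, 5 of the 10 windows held the full element (Hspa5, Hsp90b1, Calr, Canx and Pdia6), against 39 of all 32851 windows (0.119%). Allowing 1 changed base in the last 5 brought in Pdia3 and Pdia4, so 7 of 10, against 328 of all windows (0.998%). Each site is printed 5′ to 3′ on its own strand with the conserved ends in capitals.
Hspa5, chr2:34772025-34772043, plus strand: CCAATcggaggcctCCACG
Hsp90b1, chr10:86705638-86705656, minus strand: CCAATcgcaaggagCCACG
Hsp90b1, chr10:86705533-86705551, plus strand: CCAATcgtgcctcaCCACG
Hsp90b1 with 1 change, chr10:86705598-86705616, plus strand: CCAATcggaactgtCCAGG
Calr, chr8:84847075-84847093, plus strand: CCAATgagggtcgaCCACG
Canx, chr11:50325800-50325818, minus strand: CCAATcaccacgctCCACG
Pdia6, chr12:17266491-17266509, plus strand: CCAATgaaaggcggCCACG
Pdia3 with 1 change, chr2:121413873-121413891, plus strand: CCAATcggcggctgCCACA
Pdia4 with 1 change, chr6:47813602-47813620, plus strand: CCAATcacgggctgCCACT
Counted from 1 at the 5′ end of the element, the changes are C18G in the third Hsp90b1 site, G19A in Pdia3 and G19T in Pdia4. The Hspa5 and Pdia3 sites lie within the bounds that GENCODE M21 gives these genes, which begin upstream of the RefSeq starts used here. The other sites lie outside the bounds of their genes.

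Dnajb9, Sdf2l1 and Xbp1 had neither form. The related elements ATTGGNCCACG (ERSE-II, in 0.0365% of all windows) and TGACGTGG (the core of the unfolded protein response element, in 0.676%) were in none of the 10. The single parts of the element are common: CCAAT was in 9 of the 10 windows and 37.4% of all windows, and CCACG in 8 of 10 and 32.8%. Both parts can lie inside the longer element. The 250 bases before the start are given for Canx, which has the full element and had the smallest difference between CCl4 and oil among the chaperones, and for Sdf2l1, which has no match in this window and had the largest difference of the 10 genes. Capitals mark the element's ends in the Canx sequence, and Sdf2l1 has none to mark.
Canx, chr11:50325674-50325923, minus strand: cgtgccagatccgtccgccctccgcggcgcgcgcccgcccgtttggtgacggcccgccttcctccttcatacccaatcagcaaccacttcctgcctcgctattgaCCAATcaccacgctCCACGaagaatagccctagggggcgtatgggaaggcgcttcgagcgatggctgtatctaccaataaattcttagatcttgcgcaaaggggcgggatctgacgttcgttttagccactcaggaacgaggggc
Sdf2l1, chr16:17132384-17132633, minus strand: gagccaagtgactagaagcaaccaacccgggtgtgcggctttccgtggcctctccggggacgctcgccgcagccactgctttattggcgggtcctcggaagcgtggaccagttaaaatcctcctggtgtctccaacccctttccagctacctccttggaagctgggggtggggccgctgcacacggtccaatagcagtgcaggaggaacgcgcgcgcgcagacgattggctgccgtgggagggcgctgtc
A match is a run of letters and not a measured binding site, and a missing match says only that these letters are not in this window.

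**Figure D1:**
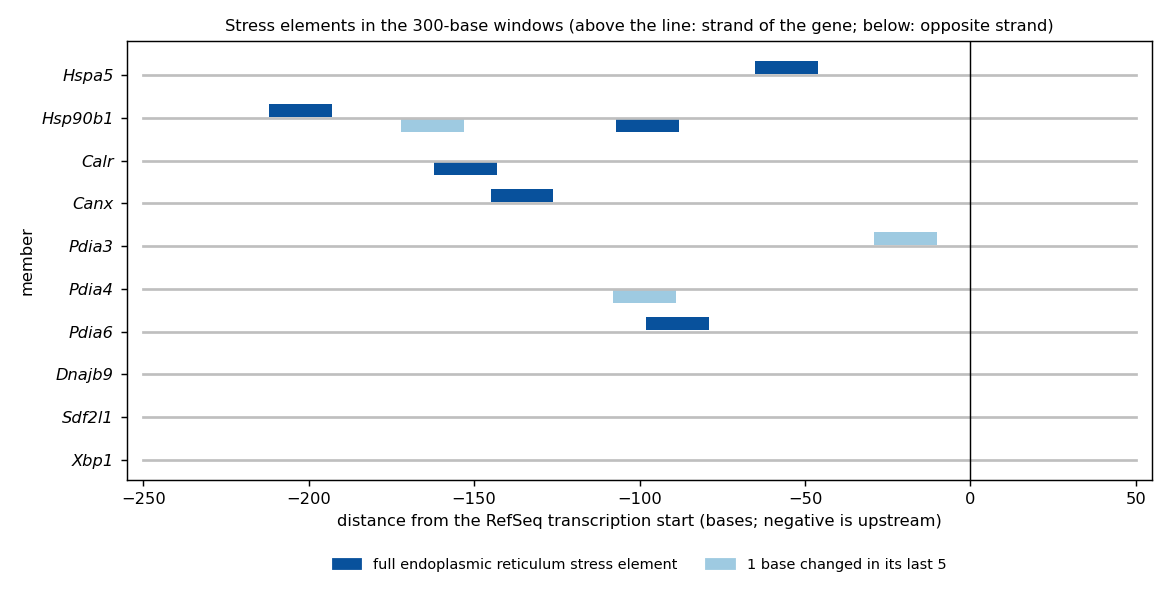
Position of each full element (dark) and of each element with 1 changed base in its last 5 (light) in the windows of the 10 genes, in bases from the RefSeq start, drawn above the line where it lies on the strand of the gene and below it where it lies on the opposite strand. Hsp90b1 has 3 sites, and Dnajb9, Sdf2l1 and Xbp1 have none.

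Each library held between 27200000 and 38800000 normalized counts in total. A normalized count is the authors' estimated count scaled by 1 factor per library. The 12 hepatocyte markers checked, Alb and Ttr among them, were above 0 in each library and together held 5.27% to 11.4% of the total. In the library Alb-R3 CCl4 replicate 1, mitochondrially encoded genes took 32.3% of the total, against 6.22% to 12.8% in the other 11. The counts of genes that passed were therefore also made without it. The larger moves are given, and some moves of a single gene are left out. Alb-Cre CCl4 replicate 2 stood apart in the 10 genes themselves, as described below, and the counts were likewise made without it. Fgfr3 was highest of the 12 libraries in one labelled Alb-R3, oil replicate 3, at 1109 normalized counts, and was 372.1 to 477.7 in the Alb-R3 CCl4 libraries against 705.7 to 950.9 in the Alb-Cre CCl4 libraries.

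Levels can be compared between genes only per length, and FPKM (fragments scaled by transcript length and library total) is used for that. On this scale Calr, the calcium-binding lectin chaperone of the ER lumen, was the most abundant of the 10 with a mean of 660.5 FPKM over the 12 libraries. Hspa5 (407.5 FPKM) and Hsp90b1 (405.1 FPKM) followed, then Pdia3 (323.5 FPKM), Pdia6 (245.1 FPKM), Xbp1 (163.9 FPKM), Canx (125.9 FPKM) and Pdia4 (124.8 FPKM). The cofactors were the least abundant, with 34.93 FPKM for Sdf2l1 and 27.16 FPKM for Dnajb9. Hspa5 and Hsp90b1 are neighbours whose ranges overlap: the FPKM ratio of Hspa5 to Hsp90b1 was between 0.676 and 1.06 in the 6 oil libraries and between 0.849 and 1.45 in the 6 CCl4 libraries. Canx was above Pdia4 in FPKM in each oil library (means of 104.7 ± 22.3 and 74.91 ± 16.1 in Alb-Cre, SD, n = 3). In Alb-Cre after CCl4 the means were 144.1 ± 14.3 and 167.6 ± 84.4 (SD, n = 3), a gap within the spread. Pdia4 was the higher there in replicate 2 alone (265.0 against 155.3 FPKM). In Alb-R3 it was the higher in each CCl4 library, by as little as 175.8 against 173.1 FPKM. The lectin pair kept its order in each library, with a ratio of Calr to Canx between 3.88 and 7.6 in FPKM.

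**Figure D2:**
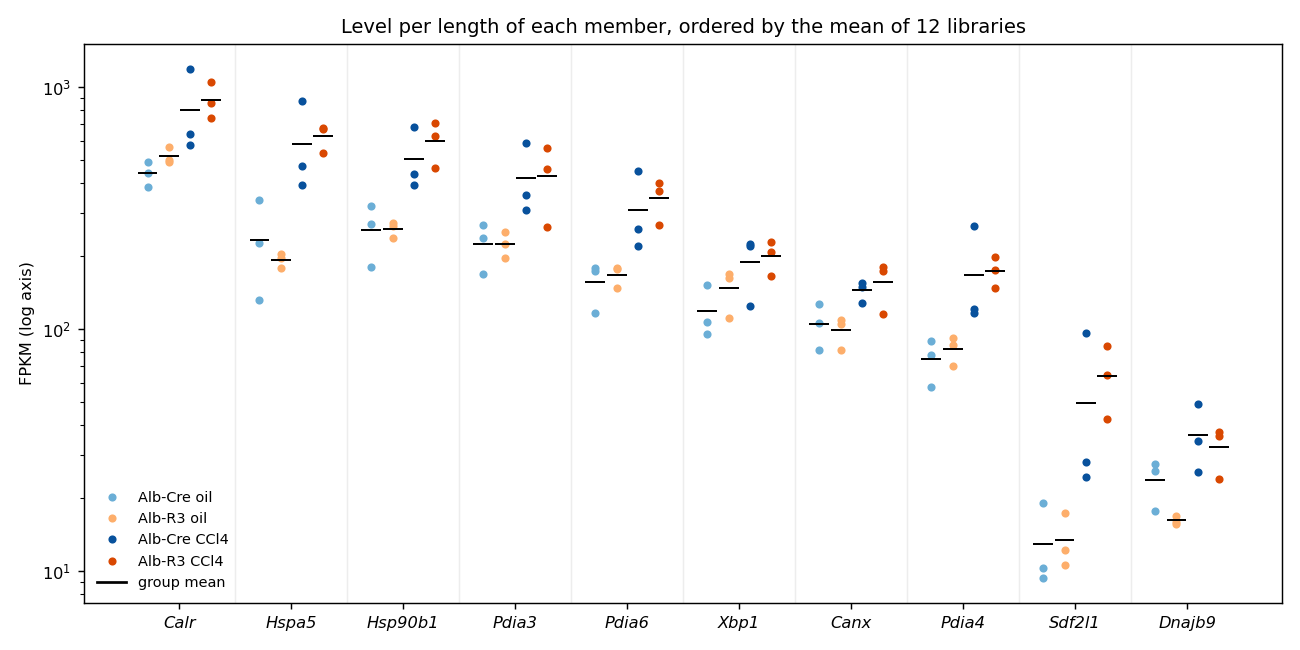
FPKM of each of the 10 genes in each library on a log axis, with genes ordered by their mean over 12 libraries and bars at the group means (3 libraries each). Calr has the highest mean in each group. The lowest positions belong to Sdf2l1 and Dnajb9, whose group means change order after CCl4, in Alb-Cre through replicate 2 alone.

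The group means of the pair at the bottom changed order after CCl4. In Alb-Cre, Dnajb9 averaged 23.71 ± 5.36 FPKM and Sdf2l1 12.89 ± 5.34 FPKM after oil (SD, n = 3), and 36.29 ± 11.8 FPKM and 49.59 ± 40.5 FPKM after CCl4 (SD, n = 3). In Alb-R3 the means were 16.18 ± 0.654 FPKM for Dnajb9 and 13.37 ± 3.52 FPKM for Sdf2l1 after oil, and 32.47 ± 7.4 FPKM and 63.88 ± 21.2 FPKM after CCl4 (SD, n = 3). The ratio of Dnajb9 to Sdf2l1 was between 0.904 and 2.7 in the oil libraries and between 0.371 and 1.22 in the CCl4 libraries, ranges that overlap. In Alb-Cre after CCl4 the ratios were 1.05, 0.508 and 1.22. There Sdf2l1 was the higher in replicate 2 alone, and the order of the means rested on that library. Sdf2l1 also spanned the widest range, its highest library lying 10.3 times above its lowest in FPKM. Hspa5 followed with 6.66 times, and Xbp1 (2.4 times) and Canx (2.21 times) varied least.

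CCl4 against oil was tested in each genotype with limma on log2(normalized count + 1) in 1 fit over the 20244 genes that passed a filter on low values, with Benjamini-Hochberg adjustment over all of them and a threshold of 0.05. All 10 genes passed the filter, and all 10 lay above 0 in both genotypes. In Alb-R3, 3 of the 10 rose (Sdf2l1, Hspa5 and Hsp90b1), beside 10.9% of all genes tested that rose in the same comparison. None of the 10 passed in Alb-Cre, where 3.46% of all genes tested rose. There 6 of the 10 had an unadjusted p under 0.05, as did 3458 of the 20244 genes tested in either direction. The median log2 difference of the 10 was 0.68 in Alb-Cre and 0.74 in Alb-R3, beside 0.02 and 0.0 over all genes tested. Averaged over both genotypes, 6 libraries against 6, a comparison added after the data had been seen and made of the same libraries, 6 of the 10 rose (Sdf2l1, Hspa5, Hsp90b1, Pdia4, Pdia6 and Pdia3), beside 12.8% of all genes tested. The counts were the same without Alb-R3 CCl4 replicate 1, namely 0, 3 and 6. Without Alb-Cre CCl4 replicate 2 they were 0, 5 and 5, and with both libraries left out 0, 6 and 6. Leaving out Alb-R3 oil replicate 1 kept only Sdf2l1 in Alb-R3 (adjusted p = 0.0552 for Hspa5), and leaving out Alb-R3 oil replicate 2 kept none (0.0639 for Hspa5, 0.0617 for Sdf2l1). The scale also mattered. With totals made equal without the mitochondrially encoded genes, 4, 9 and 10 of the 10 passed in Alb-Cre, Alb-R3 and the average, beside 5.98%, 23.5% and 26.1% of all genes tested that rose, and on that scale the median of all genes tested moved to 0.20, 0.38 and 0.29. The share of all calls that were higher after CCl4 then went from 77.8% to 91.1% in Alb-Cre and from 61.1% to 90.3% in Alb-R3. Relative to that median, Hspa5 in Alb-R3 was at 1.45 on the rescaled values and 1.42 on the deposited ones, and Sdf2l1 at 2.0 and 1.96. In bulk RNA, fewer cells of a type and less RNA per cell cannot be told apart.

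**Figure D3:**
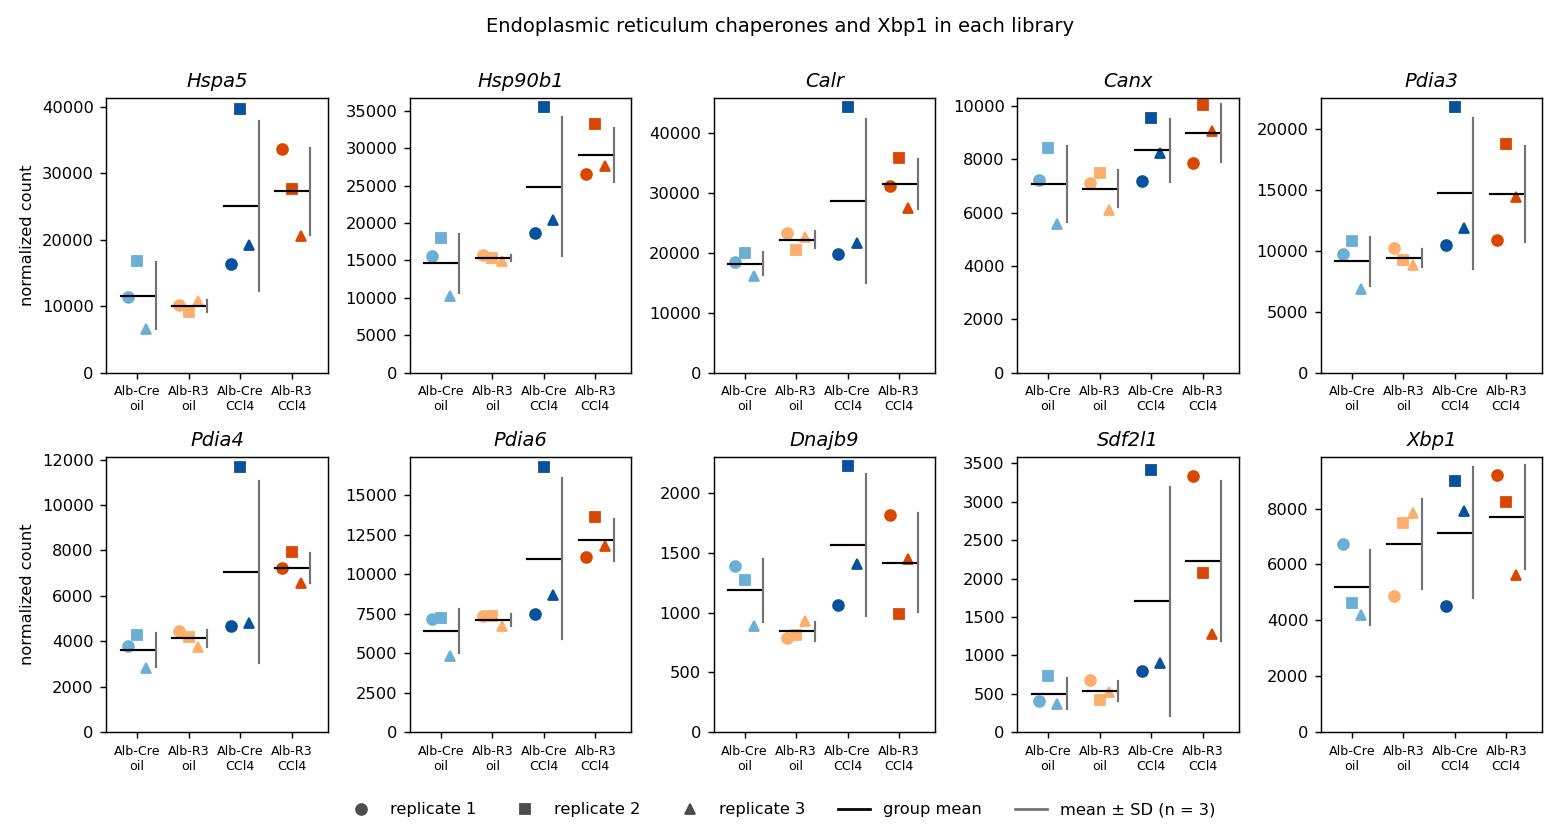
Normalized count of each of the 10 genes in each library, with the symbol giving the replicate number, a horizontal bar at the group mean and a vertical bar for the mean ± SD (n = 3). In the Alb-Cre CCl4 group, replicate 2 is the highest library for each of the 10 genes, and for Sdf2l1 it reads 3419 against 790.2 and 897.7.

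Hspa5 encodes BiP, the HSP70 chaperone of the ER lumen, which also holds the stress sensors inactive until unfolded protein draws it away. The gene (ENSMUSG00000026864) lies at chr2:34771970-34777547 on the plus strand. In Alb-Cre, the oil libraries read 11420, 16800 and 6610 normalized counts and the CCl4 libraries 16290, 39760 and 19220, so that the lowest CCl4 library lay under the highest oil library. In Alb-R3, the oil libraries read 10190, 9064 and 10830 and the CCl4 libraries 33670, 27690 and 20520. All 3 CCl4 libraries of Alb-R3 lay above all 3 oil libraries. Hspa5 rose 2.67-fold in Alb-R3 (95% interval 1.54 to 4.63; log2 1.42, SE 0.37, adjusted p = 0.0178), and without replicate 1 of that CCl4 group the value was 1.25 (adjusted p = 0.0427). In Alb-Cre the log2 difference was 1.1 (SE 0.37, adjusted p = 0.126), and without replicate 2 of the CCl4 group it was 0.71 (adjusted p = 0.418). The averaged rise was 1.26 on the log2 scale (SE 0.26, adjusted p = 0.00388).

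Hsp90b1 encodes GRP94, the HSP90 chaperone of the ER, which folds a narrower set of clients such as integrins and Toll-like receptors. It (ENSMUSG00000020048) lies at chr10:86690209-86705509 on the minus strand and overlaps 1810014B01Rik, Gm15344 and Gm25745, from which unstranded reads could not be told apart (the sources used here do not say whether strand was used). The Alb-Cre libraries read 15530, 18030 and 10300 normalized counts after oil and 18620, 35490 and 20370 after CCl4. Those of Alb-R3 read 15720, 15310 and 14980 after oil and 26520, 33240 and 27580 after CCl4. The CCl4 libraries lay above the oil libraries in both genotypes, by a narrow gap in Alb-Cre and a wide one in Alb-R3. Hsp90b1 rose 1.89-fold in Alb-R3 (95% interval 1.25 to 2.85; log2 0.92, SE 0.28, adjusted p = 0.0357), and the log2 difference in Alb-Cre was 0.74 (SE 0.28, adjusted p = 0.175). This call was the least steady of the 3 in Alb-R3, being kept in 6 of the 12 fits that left out 1 library. It was lost at an adjusted p between 0.0508 and 0.0941 without Alb-Cre oil replicate 1, any of the Alb-R3 oil libraries, or Alb-R3 CCl4 replicate 2 or 3, and it was kept without Alb-R3 CCl4 replicate 1 (log2 0.98, adjusted p = 0.0349). In the averaged comparison it rose by a log2 of 0.83 (adjusted p = 0.00852) and kept the call in all 12.

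Calr and Canx encode calreticulin and calnexin, a soluble and a membrane-bound lectin that hold newly made glycoproteins until they fold. Calr (ENSMUSG00000003814) lies at chr8:84841850-84846934 and Canx (ENSMUSG00000020368) at chr11:50293961-50325673, both on the minus strand. Calr read 18440, 19980 and 16130 normalized counts in Alb-Cre after oil and 19830, 44500 and 21700 after CCl4, and in Alb-R3 23390, 20580 and 22680 after oil and 31190, 35910 and 27560 after CCl4. The CCl4 libraries lay wholly above the oil libraries in Alb-R3 and not in Alb-Cre, where 1 library of the 3 was far above the rest. Canx had the flattest profile: 7232, 8406 and 5560 normalized counts, then 7177, 9559 and 8243 after CCl4 in Alb-Cre, and 7103, 7479 and 6112, then 7869, 10050 and 9047 in Alb-R3. Neither passed in any comparison of the main fit. Averaged over genotypes, the log2 difference was 0.53 for Calr (SE 0.20, adjusted p = 0.0784) and 0.31 for Canx (95% interval 0.02 to 0.61, adjusted p = 0.123). With library weights both passed in the average (limma, adjusted p = 0.037 for Calr and 0.0342 for Canx). Of the 12 fits that left out 1 library, averaged Calr passed in 1 and Canx in 0, and each passed in 4 of 11 other settings. Both carry the full stress element printed above.

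The disulfide isomerases form and rearrange disulfide bonds. Pdia3 (ERp57) works on the glycoproteins held by calreticulin and calnexin, Pdia6 (P5) is known to associate with Hspa5, and Pdia4 (ERp72) is a further family member. Pdia3 (ENSMUSG00000027248, chr2:121413775-121438687) overlaps Catsper2, Pdia4 (ENSMUSG00000025823, chr6:47796141-47813430) overlaps Mir704, and Pdia6 (ENSMUSG00000020571, chr12:17266545-17284770) overlaps Atp6v1c2. All 3 passed in the averaged comparison and in neither genotype alone.

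Pdia4 read 3781, 4263 and 2804 normalized counts after oil and 4680, 11660 and 4790 after CCl4 in Alb-Cre, and 4445, 4191 and 3734 against 7228, 7911 and 6570 in Alb-R3. The groups did not overlap in either genotype, and in Alb-R3 the gap was wider than the spread of either group. Pdia4 rose by 0.83 on the log2 scale in the averaged comparison (SE 0.21, adjusted p = 0.0124), and the values for Alb-Cre and Alb-R3 were 0.84 (adjusted p = 0.146) and 0.81 (adjusted p = 0.0747). Pdia6 read 7165, 7208 and 4791 normalized counts against 7466, 16800 and 8700 in Alb-Cre, and 7339, 7345 and 6690 against 11080, 13610 and 11800 in Alb-R3. Here too no CCl4 library lay below an oil library of its genotype, though the lowest Alb-Cre CCl4 library was close to the oil libraries. Its averaged rise was 0.74 (SE 0.19, adjusted p = 0.0142). Without Alb-Cre CCl4 replicate 2, both genes passed in Alb-R3 (adjusted p = 0.00856 for Pdia4 and 0.0172 for Pdia6), with unchanged log2 differences of 0.81 and 0.77.

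Pdia3 read 9728, 10810 and 6892 normalized counts in Alb-Cre after oil and 10470, 21840 and 11910 after CCl4, and in Alb-R3 10260, 9218 and 8812 and then 10880, 18770 and 14420. Alb-R3 CCl4 replicate 1, the library rich in mitochondrial RNA, was barely above the oil libraries. Pdia3 rose by 0.62 in the averaged comparison (SE 0.20, adjusted p = 0.0442). That call rested on single libraries: it was kept in 3 of 12 fits that left 1 library out and lost in the rest at an adjusted p of up to 0.0971, and without Alb-Cre CCl4 replicate 2 the value was 0.46 (adjusted p = 0.0908).

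Dnajb9 and Sdf2l1 both serve Hspa5. Dnajb9 encodes ERdj4, a J-domain protein that steers Hspa5 to misfolded clients and to the IRE1 sensor, and Sdf2l1 encodes a small ER protein that forms complexes with J-domain cofactors and slows the aggregation of misfolded clients. Dnajb9 (ENSMUSG00000014905) lies at chr12:44205559-44210326 on the minus strand and overlaps Mir5627. Sdf2l1 (ENSMUSG00000022769) lies at chr16:17130138-17132383 on the minus strand.

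Sdf2l1 had the largest difference of the 10 genes. In Alb-Cre it read 402.1, 732.1 and 368.7 normalized counts after oil and 790.2, 3419 and 897.7 after CCl4. In Alb-R3 it read 678.4, 419.3 and 523.9 after oil and 3337, 2077 and 1275 after CCl4. In both genotypes each CCl4 library lay above each oil library, and the CCl4 libraries were spread more widely than the oil libraries. Sdf2l1 rose 3.89-fold in Alb-R3 (95% interval 1.87 to 8.13; log2 1.96, SE 0.49, adjusted p = 0.0153). In Alb-Cre the log2 difference was 1.49 (SE 0.49, adjusted p = 0.121), and 0.82 (adjusted p = 0.392) without replicate 2 of the CCl4 group. Without Alb-R3 CCl4 replicate 1 the Alb-R3 value was 1.62 (adjusted p = 0.0459). The averaged rise was 3.31-fold (95% interval 1.97 to 5.57; adjusted p = 0.00335).

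Dnajb9 behaved less evenly. It read 1393, 1277 and 887.9 normalized counts in Alb-Cre after oil and 1063, 2228 and 1410 after CCl4, groups that overlap, and in Alb-R3 786.8, 810.3 and 934.3 and then 1821, 988.8 and 1448, groups that do not. Within the Alb-R3 CCl4 group it was lowest in replicate 2, where 6 of the other genes were at their highest. The log2 difference was 0.36 in Alb-Cre (SE 0.28, adjusted p = 0.58), 0.71 in Alb-R3 (SE 0.28, adjusted p = 0.0965) and 0.53 averaged (SE 0.20, adjusted p = 0.0682).

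Xbp1, the transcription factor of the set, showed no difference that passed on the deposited scale. The gene (ENSMUSG00000020484) lies at chr11:5520659-5525893 on the plus strand. It read 6722, 4636 and 4198 normalized counts in Alb-Cre after oil and 4517, 8991 and 7908 after CCl4. The Alb-R3 libraries read 4873, 7471 and 7846 after oil and 9210, 8252 and 5622 after CCl4. Oil and CCl4 libraries were interleaved in both genotypes, and the lowest library of each of the 4 groups lay between 4198 and 5622. The log2 difference was 0.43 in Alb-Cre (SE 0.30, adjusted p = 0.52), 0.19 in Alb-R3 (SE 0.30, adjusted p = 0.706) and 0.31 averaged (95% interval -0.14 to 0.76, adjusted p = 0.322). The interval of the averaged difference includes 0 and also the values of Canx, Calr and Dnajb9. It includes as well those of Pdia3 (0.62) and Pdia6 (0.74), which passed in that comparison. On other scales averaged Xbp1 passed: at 0.62 (SE 0.19, adjusted p = 0.0283) with totals equal without mitochondrially encoded genes, and at 0.56 (SE 0.19, adjusted p = 0.0431) on the FPKM columns. The median of all genes tested was 0.29 and 0.23 on those scales, beside 0.02 on the deposited one. In FPKM, the ratio of Hspa5 to Xbp1 was between 1.07 and 3.18 in the oil libraries and between 2.14 and 3.88 in the CCl4 libraries. These ranges overlap through 1 oil library, Alb-Cre replicate 2.

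Counted by overlap, each CCl4 library lay above each oil library for 9 of the 10 genes in Alb-R3 (all but Xbp1), beside 18.1% of all genes tested. In Alb-Cre this held for 4 of the 10 (Hsp90b1, Pdia4, Pdia6 and Sdf2l1), beside 13.3%. Across both genotypes, all 6 CCl4 libraries lay above all 6 oil libraries for the same 4 genes, beside 6.8% of all genes tested.

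No difference between the genotypes passed in these genes. Alb-R3 against Alb-Cre gave 0 of 10 after oil (0.207% of all genes tested passed, in either direction) and 0 of 10 after CCl4 (0.173%), and 0 of 10 had an unadjusted p under 0.05 in either. After oil the log2 differences ran from -0.47 for Dnajb9 (95% interval -1.06 to 0.13, adjusted p = 0.94) to 0.38 for Xbp1 (95% interval -0.26 to 1.01). After CCl4 they ran from -0.12 for Dnajb9 to 0.62 for Sdf2l1 (95% interval -0.44 to 1.68, adjusted p = 0.824). Calr was the only one of the 10 with all Alb-R3 oil libraries above all Alb-Cre oil libraries, at a log2 difference of 0.29 (95% interval -0.32 to 0.91). The share of all genes tested with such a gap was not counted, so this is no result about Calr.

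The difference between genotypes in the response to CCl4 was tested as an interaction. It passed for 0 of the 10 and for 0.0% of all genes tested in limma (1516 genes, none of them among the 10, had an unadjusted p under 0.05). Estimates ran from -0.24 for Xbp1 (95% interval -1.14 to 0.66) to 0.47 for Sdf2l1 (95% interval -1.03 to 1.97), with a smallest adjusted p of 0.937. For Hspa5 the estimate was 0.32 (95% interval -0.8 to 1.44). These intervals are wide: a response in one genotype larger by a log2 of 1 than in the other lies inside them for Hspa5, Sdf2l1 and others. That 3 genes passed in Alb-R3 and none in Alb-Cre is therefore no measured difference between the genotypes.

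**Figure D4:**
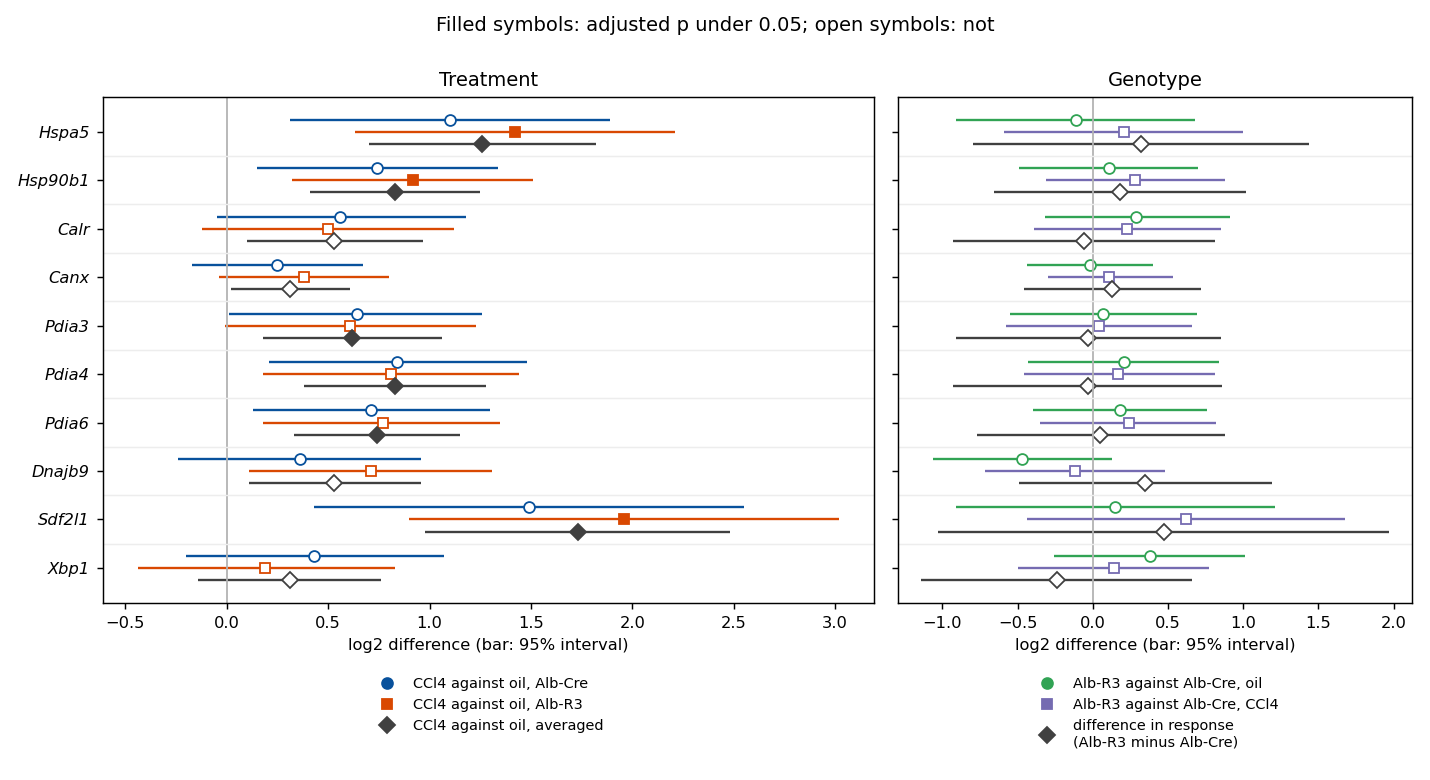
Log2 difference of each of the 10 genes with its 95% interval, for CCl4 against oil in each genotype and averaged (left) and for the genotype comparisons and the difference in response (right). Filled symbols passed an adjusted p of 0.05; on the right none is filled, and on the left Hspa5, Hsp90b1 and Sdf2l1 are filled in Alb-R3 and 3 more genes in the averaged comparison.

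The 10 genes also varied together between libraries of 1 group. Alb-Cre CCl4 replicate 2 was the highest of its group for all 10, at 1.24 (Canx) to 4.05 (Sdf2l1) times the mean of the other libraries and a median of 2.02. The same library was the highest for 35.9% of the 9823 genes with a mean of at least 100 normalized counts, whose median ratio was 0.991. In the same group replicate 1 was the lowest for all 10, with ratios of 0.366 (Sdf2l1) to 0.806 (Canx). Replicate 1 was also the lowest for 38.6% of those 9823 genes. Within the Alb-Cre oil group, replicate 3 was the lowest for all 10, with ratios of 0.468 (Hspa5) to 0.84 (Calr), and was the lowest for 52.6% of those 9823 genes. That library had 12.8% of its total in mitochondrially encoded genes, the second highest share, and the part of this in the result was not tested. Together the 10 genes held 0.165% to 0.266% of the total in the oil libraries of both genotypes. After CCl4 the Alb-Cre libraries held 0.311%, 0.606% and 0.365%, and those of Alb-R3 0.402%, 0.546% and 0.462%.

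The Alb-R3 CCl4 libraries did not share 1 order. Replicate 1 was the highest of the group for Hspa5, Dnajb9, Sdf2l1 and Xbp1 and the lowest for Hsp90b1, Canx, Pdia3 and Pdia6. Replicate 2 was the highest for the other 6. Of the total without mitochondrially encoded genes, the 10 genes held 0.594%, 0.589% and 0.502% in replicates 1 to 3, so on that base replicate 1 was not lower than the rest.

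**Figure D5:**
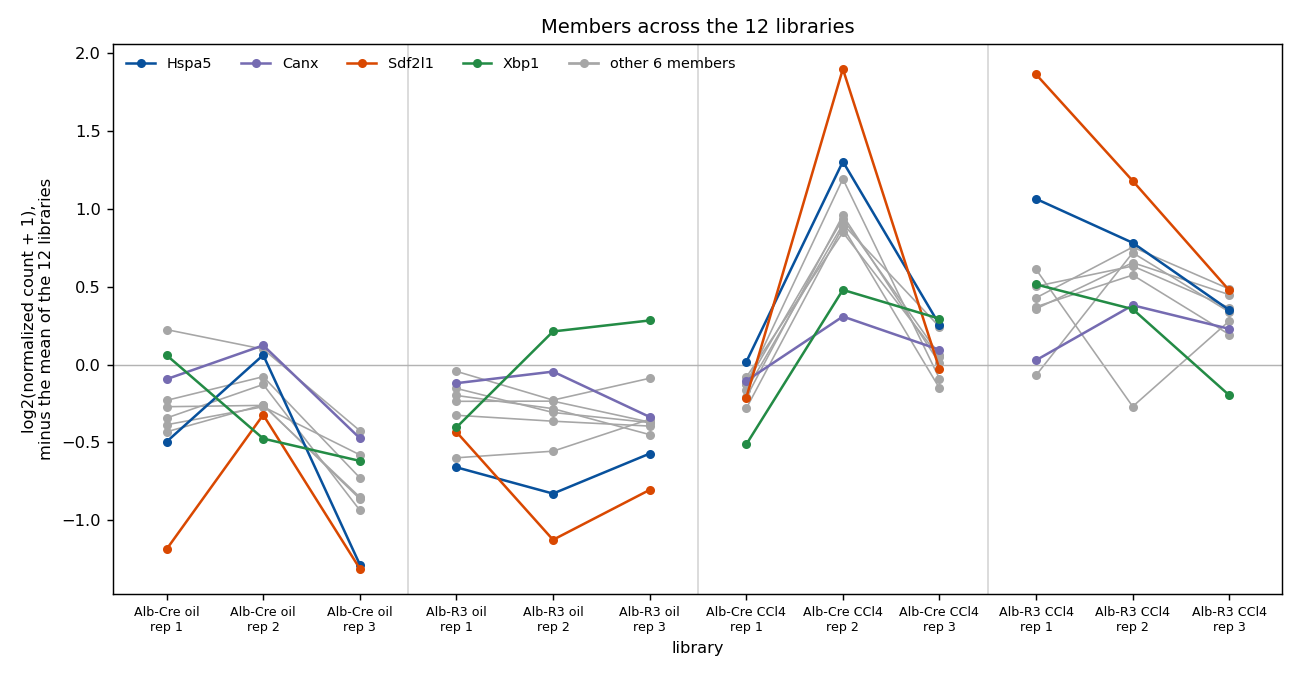
Log2(normalized count + 1) of each of the 10 genes minus its mean over the 12 libraries, by library, with Hspa5, Canx, Sdf2l1 and Xbp1 in colour, the other 6 genes in grey and lines joining libraries of 1 group only to make genes traceable. Most lines peak at Alb-Cre CCl4 replicate 2, and Xbp1 follows another course in the Alb-R3 oil libraries.

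Likeness of profile was described over the 12 libraries, which share their groups, so it carries no p. Against the mean of the 10 standardised genes, Pearson's r was 0.986 for Pdia6, 0.982 for Hsp90b1, 0.981 for Pdia4 and 0.961 for Hspa5, and the lowest values were those of Dnajb9 (0.737) and Xbp1 (0.667). Of 9813 other genes with a mean of at least 100 normalized counts, the nearest to that mean were Surf4 (r = 0.98), a cargo receptor for export from the ER, and Tmed9 (0.974), a carrier of the early secretory pathway. Next came Ssr2 (0.967), a subunit of the complex beside the translocation channel, Uggt1 (0.966), the folding sensor that sends glycoproteins back to the lectins, and Hyou1 (0.961), the ER chaperone GRP170. Surf4, the nearest, rose by a log2 of 0.43 in the averaged comparison (SE 0.13, adjusted p = 0.0273). Xbp1 itself was most like Onecut1 (0.959), a transcription factor of hepatocytes, and then Plpp2 (0.93), B4galt1 (0.93), Mbd3 (0.91) and Arpc1b (0.892). Its r with the other 9 genes was between 0.441 (Canx) and 0.658 (Calr). Onecut1, like Xbp1, did not pass between CCl4 and oil (averaged log2 0.56, SE 0.46, adjusted p = 0.434).

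Among 21 other ER chaperones, folding enzymes and cofactors, 5 rose in Alb-R3, 1 in Alb-Cre and 7 in the averaged comparison, and none fell. Their median log2 differences were 0.43, 0.30 and 0.38. Of all genes tested, 10.9%, 3.46% and 12.8% rose in the same comparisons. Creld2, a secreted ER protein induced by ER stress, had the largest averaged rise, 1.79 (SE 0.44, adjusted p = 0.0114). It read 632.5, 410.3 and 575.9 normalized counts in Alb-R3 after oil and 6349, 2063 and 1110 after CCl4, and in Alb-Cre 457.7, 947.9 and 443.9 and then 750.6, 4035 and 1107. The libraries with most Creld2, Alb-R3 CCl4 replicate 1 and Alb-Cre CCl4 replicate 2, are also those with most Sdf2l1. Manf, a secreted ER protein that binds Hspa5, rose by 1.53 averaged (SE 0.27, adjusted p = 0.0014), from 1378 to 2214 normalized counts in the Alb-R3 oil libraries to between 3912 and 9058 after CCl4. Dnajc10, an ER reductase with a J domain, was the gene that passed in Alb-Cre (log2 1.07, SE 0.24, adjusted p = 0.0217). Without Alb-Cre CCl4 replicate 2 it did not pass there. With Alb-R3 CCl4 replicate 1 left out, Dnajc10 and Manf were the 2 that passed in Alb-R3 and also the 2 that passed in Alb-Cre, while the 7 in the averaged comparison were the same genes without either library. P4hb, the archetypal disulfide isomerase, did not pass (averaged log2 0.41, adjusted p = 0.164), nor did Dnajc3 (0.38, adjusted p = 0.168).

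Among 22 genes of ER translocation and ER-associated degradation, 8 rose and 1 fell in Alb-R3, 0 changed in Alb-Cre, and 9 rose and 2 fell in the averaged comparison. Of all genes tested, 10.9% rose in Alb-R3, 3.46% in Alb-Cre and 12.8% averaged. Of the 20244 genes tested, 1400 fell in Alb-R3 and 1778 averaged. Of the 9 that rose, 7 serve entry into the ER or cleavage of the signal peptide (Sec61a1, Sec61g, Ssr1, Ssr2, Ssr3, Spcs2 and Spcs3). Sec61a1, the channel's core, rose by 0.91 averaged (SE 0.18, adjusted p = 0.00262), and the translocon-associated subunit Ssr3 by 0.83 (SE 0.20, adjusted p = 0.0107). In Alb-R3 the largest was the small channel subunit Sec61g (log2 1.24, SE 0.36, adjusted p = 0.0319), followed by Ssr1 (0.96, SE 0.19, adjusted p = 0.0042). Sec62, which helps short proteins into the channel, fell by 0.45 averaged (adjusted p = 0.00448), and Derl2, a part of the export route for degradation, fell by 0.46 (adjusted p = 0.0074). Without Alb-R3 CCl4 replicate 1, the count in Alb-R3 was 5 higher and 1 lower and that in Alb-Cre 2 higher (Sec61a1 and Ssr1), and without Alb-Cre CCl4 replicate 2 the averaged count was 6 higher and 3 lower. Herpud1, an ER stress gene of the degradation route, did not pass (averaged log2 -0.32, adjusted p = 0.29).

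The sensors and transcription factors of the unfolded protein response made up a list of 16 genes. In the averaged comparison 2 rose and 2 fell, in Alb-R3 1 rose and in Alb-Cre 0 changed, and their median averaged log2 difference was 0.01 beside 0.02 over all genes. The share of all genes tested that rose was 12.8% averaged and 10.9% in Alb-R3, and 1778 of the 20244 genes fell averaged. The 2 of 16 that rose averaged were near the share of all genes. Creb3l2, a membrane-bound transcription factor of the ATF6 kind, rose by 0.82 (SE 0.19, adjusted p = 0.00768), and Eif2ak3, the PERK sensor, by 0.52 (SE 0.17, adjusted p = 0.0383). Eif2ak3 did not pass without Alb-Cre CCl4 replicate 2, which left 1 higher and 2 lower. Without Alb-R3 CCl4 replicate 1, Creb3l2 also rose in each genotype and Trib3 fell in Alb-Cre. The genes that fell were Trib3 (-1.18, SE 0.26, adjusted p = 0.00651) and Ppp1r15a (-0.64, SE 0.16, adjusted p = 0.0121). Trib3 read 211.9 to 643.6 normalized counts in the oil libraries of both genotypes and 84.64 to 187.8 in the CCl4 libraries. Values that did not pass were -0.18 for Atf4 (adjusted p = 0.43), -0.07 for Atf6 (adjusted p = 0.834) and -0.21 for Ern1 (adjusted p = 0.612). Ddit3 (CHOP), at 0.62 (adjusted p = 0.304), read 1501 normalized counts in Alb-R3 CCl4 replicate 1 and between 188.1 and 441.5 in the other 11 libraries. Atf3, the 1 gene that rose in Alb-R3 (log2 1.95, SE 0.48, adjusted p = 0.0135), read 104, 364.9 and 141.9 after oil and 853.2, 1119 and 333.4 after CCl4 there.

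Chaperones of the cytosol and mitochondria, 18 genes, served as a contrast by place. Only Hsp90aa1, the inducible cytosolic HSP90, rose, and it did so in each genotype: by 1.22 in Alb-Cre (SE 0.23, adjusted p = 0.00713) and 1.24 in Alb-R3 (SE 0.23, adjusted p = 0.00291). It read 2286 to 3957 normalized counts in the 6 oil libraries and 5411 to 8878 in the 6 CCl4 libraries. The list's median averaged log2 difference was 0.02, equal to that of all genes tested. Its ER counterpart Hsp90b1 rose by the 0.83 given above. None of the genes of these 4 lists passed in a comparison between genotypes.

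The full stress element was in the windows of 32 other genes, of which 28 were in the table and 16 were tested. In the averaged comparison 7 of the 16 rose (Acnat2, Alg12, Creld2, Hnrnpa3, Spats2l, Syvn1 and Zfp57) and 0 fell, with a median log2 difference of 0.60. Beside this, 12.8% of all genes tested rose, with a median of 0.02. Zfp57 and Spats2l were low genes, with means of 8.277 and 26.47 normalized counts. In Alb-R3 5 rose and in Alb-Cre none, with medians of 0.67 and 0.50, beside 10.9% and 3.46% of all genes tested. With Alb-R3 CCl4 replicate 1 left out, 6 rose averaged, 4 in Alb-R3 and 3 in Alb-Cre, and with Alb-Cre CCl4 replicate 2 left out, 6 rose averaged, 5 in Alb-R3 and 0 in Alb-Cre. These 16 include genes of the lists above, such as Creld2 and Syvn1. Among the 10 genes described here, those with the full element included Hspa5 and Hsp90b1, which rose in Alb-R3, and Calr and Canx, which did not pass, while Sdf2l1 rose without it.

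Markers of other cell types moved in some of the same libraries. The share of all genes tested that rose after CCl4 was 10.9% in Alb-R3 and 3.46% in Alb-Cre. In Alb-R3, 12 of 12 Kupffer cell and macrophage markers rose after CCl4 (10 without replicate 1), and their summed share of the total was 0.0029% to 0.00375% after oil and 0.0099% to 0.047% after CCl4. In Alb-Cre 0 of the 12 rose (1, Cd68, without Alb-R3 CCl4 replicate 1), at 0.00451% to 0.00878% after oil and 0.00604% to 0.00797% after CCl4. Of 12 liver endothelial markers, 9 rose in Alb-R3 (0.00606% to 0.00639%, then 0.0104% to 0.0211%) and 0 in Alb-Cre (0.0113% to 0.0145%, then 0.0123% to 0.0211%), and 11 rose in Alb-R3 without its CCl4 replicate 1. Of 12 stellate cell and fibroblast markers, 10 rose in Alb-R3 (0.00313% to 0.00379%, then 0.00569% to 0.0182%) and 4 in Alb-Cre (0.00636% to 0.00848%, then 0.00879% to 0.0145%). The Alb-R3 count was 12 without its CCl4 replicate 1, and in Alb-Cre 2 (Acta2 and Col1a1) rose without its CCl4 replicate 2. B and plasma cells, secretory cells rich in ER, had 10 markers that summed to no more than 0.00115% of the total in any library, with up to 5 of them at 0, and the 1 marker that changed in either genotype, Ighm, fell (log2 -2.99 in Alb-Cre, -3.51 in Alb-R3). In the averaged comparison another, Cd79a, rose (log2 1.6, SE 0.49, adjusted p = 0.0327). Cd79a did not pass without Alb-R3 CCl4 replicate 1 or without Alb-Cre CCl4 replicate 2. Of 7 cholangiocyte markers, 5 were tested, Spp1 rose in both genotypes and Krt19 in Alb-R3, and the 7 held no more than 0.0175% of the total. Spp1 did not pass in Alb-Cre without its CCl4 replicate 2, and in Alb-R3 Epcam and Spp1 were the markers that rose when its CCl4 replicate 1 was left out. Of 8 T and NK cell markers, 7 were tested, 2 rose in Alb-R3 (0 of 5 tested without Alb-R3 CCl4 replicate 1, and 1 of 7 without Alb-Cre CCl4 replicate 2) and 0 in Alb-Cre, and the 8 held no more than 6.48e-05% of the total. No Kupffer cell or endothelial marker was at 0 in any library. Of the 12 hepatocyte markers, 5 fell in Alb-R3 (Cyp2e1, Tdo2, Hal, Tat and Asgr1) and 0 in Alb-Cre. Of the 20244 genes tested, 1400 fell in Alb-R3 and 200 in Alb-Cre. Without Alb-R3 CCl4 replicate 1, 3 markers fell in Alb-R3 (Asgr1, Cyp2e1 and Hal) and 3 in Alb-Cre (Cyp2e1, Hal and Tat), beside 1231 and 454 of 19818 genes. The summed share of the 12 did not fall in Alb-Cre (7.87% to 10.4% after oil, 10.9% to 11.1% after CCl4). In Alb-R3 it was 8.38% to 10.4% after oil, then 5.27%, 11.1% and 11.4% in CCl4 replicates 1 to 3. The part of these cells in the results was not tested.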

How the data were processed

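Per the file headers, the authors deposited a normalized count and an FPKM value for each gene and library. Per the submitters' processing notes, kallisto 0.44.0, edgeR and GRCm38.p6 were used, in roles not stated. The deposited normalized count is a signal, an estimated count scaled by 1 factor per library, and the deposited FPKM also divides by gene length and total. Log2(normalized count + 1) was fitted in limma 3.58.1 (R 4.3.3) with a mean-variance trend and 1 coefficient per group (8 residual degrees of freedom), as the unit allows no count model. The 20244 of 35709 identifiers with at least 1 in at least 3 libraries were tested, and 35574 identifiers have a symbol. Fold changes understate the change of low genes. The fit was tested on simulated data. Replicate pairs exceeded counting noise. Replicate numbers did not pair libraries. The 10 genes, the lists and the motifs were chosen with earlier results of these data known. Named genes are the 10, up to 2 past the threshold in each direction per list and comparison, and the 5 most alike in profile. P4hb, Dnajc3, Herpud1, Atf4, Atf6, Ern1 and Ddit3 were added for their known roles after their values were seen. Positions are from GENCODE M21 (GRCm38). Alternatives were 24, among them quantile normalization, FPKM columns (pseudocount 0.1), library weights, other filters and pseudocounts, and leaving out each library.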

Additional observations from a re-analysis of the deposited data

How the results depend on the processing

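In the 24 alternatives, the count of the 10 genes that passed after CCl4 moved by over 1.5 times in 15 cases. In Alb-Cre, where none passed, it was 1 with quantile normalization, 4 with totals equal without mitochondrially encoded genes, 2 with library weights and 4 on the FPKM columns, beside 2.7%, 5.98%, 8.18% and 7.96% of all genes tested that rose (3.46% on the deposited scale). In Alb-R3, where 3 passed, it was 8, 9, 7 and 6 in the same order, beside 8.51%, 23.5%, 14.6% and 20.2% of all genes (10.9% on the deposited scale). It was 5 in a fit to the 6 libraries compared (6.6% of all genes). Without Alb-R3 CCl4 replicate 1 and Alb-Cre CCl4 replicate 2 together it was 6 (10.2%). Averaged over genotypes, where 6 passed, it was 10 with totals equal without mitochondrially encoded genes and 10 on the FPKM columns, beside 26.1% and 26.8% of all genes (12.8%). Leaving out 1 library gave 0 in Alb-Cre, 0 to 5 in Alb-R3 and 5 to 8 averaged. Beside this, 2.21% to 4.93%, 7.06% to 11.5% and 10.6% to 14.2% of all genes tested rose. The genotype comparisons and the interaction gave 0 in each alternative. Averaged calls for Hspa5, Hsp90b1, Pdia4, Pdia6 and Sdf2l1 were kept in all 12 fits without 1 library and in all 11 other settings. On the FPKM columns the median of all genes tested was 0.22 in Alb-Cre and 0.23 in Alb-R3, and 92.0% and 84.1% of calls were higher after CCl4. With quantile normalization those shares were 70.0% and 51.2%, and with library weights 61.3% in Alb-Cre. The causes were not tested.

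Among the log2 differences printed for the 10 genes, signs turned in 6 cases, none of which passed. Genotype differences not printed were not followed across all alternatives. Of these, the interaction estimates of Calr, Pdia3 and Pdia4 turned to 0.3, 0.29 and 0.4 without Alb-Cre CCl4 replicate 2, and none passed. Xbp1 in Alb-R3 ran from -0.02 to 0.4 with 1 library left out. With library weights, Xbp1 was -0.03 between genotypes after oil and 0.15 in the interaction. Dnajb9 between genotypes after CCl4 was 0.02 with totals equal without mitochondrially encoded genes, and ran from -0.36 to 0.17 with 1 library left out.

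With the replicate number as a block (replicate block), 4 of the 10 passed in Alb-R3, Pdia4 being added (log2 0.81, adjusted p = 0.0492), 6 averaged and 0 in Alb-Cre. Of all genes tested, 9.77%, 11.8% and 2.8% rose in the same order. The numbers share only a label: deviations of the 18 same-numbered pairs correlated at a median of -0.09 (-0.39 to 0.45), those of the 36 others at 0.04, and 0 libraries were most like the same-numbered library in every other group. A fit to only the libraries compared was not run for the interaction and the average, which use all 12.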
